A study of Mus musculus with 16 samples.

Results

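The liver response of female WSB/EiJ mice to dietary tamoxifen was described from 8 microarrays, 1 mouse per array, out of the 16 arrays of the series. The 8 arrays were chosen by diet group: 4 females that received 420 ppm tamoxifen for 12 weeks and 4 females on the control diet. WSB/EiJ is a wild-derived inbred strain, and nothing in the labels gives the animals an engineered allele. All 8 mice were 18 weeks old, ate NIH-31 chow with or without the drug, and gave a piece of whole liver that was snap-frozen. The design text names tamoxifen DNA adducts and liver expression as the subject; adducts were not analysed here.

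Tamoxifen is a selective oestrogen receptor modulator: it binds the receptor and acts as an antagonist in breast and as a partial agonist in other tissues, the liver among them. Hepatocytes hydroxylate and demethylate it with cytochromes P450, oxidise its side chain with flavin-containing monooxygenases, conjugate the products with sulfotransferases and glucuronosyltransferases, and export them. It also inhibits sterol isomerase and reductase steps late in cholesterol synthesis. In rodents the liver is sexually dimorphic, because the pattern of growth hormone release differs between the sexes and sets the activity of STAT5 and of repressors such as BCL6 and CUX2.

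The values are the authors' normalized intensities on a linear scale, on which the 75th percentile of an array is near 1000. A change is the difference of mean log2 intensities, tamoxifen minus control, with its standard error from limma, and "called" means a Benjamini-Hochberg adjusted p under 0.05 over 13662 genes. Array values are given in replicate order; mice 1 and 2 of each group shared the first slide and mice 3 and 4 the second. Of the tested genes, 1324 (9.69%) rose and 1473 (10.8%) fell, together 20.5%, and 313 and 276 of these changed at least 2-fold. The 4 treated and the 4 control values did not overlap for 2644 of the called genes and for 3652 (26.7%) of all tested genes. In the plot of all tested genes, calls lie at every level of intensity. The median change over all tested genes was 0.01. All 2797 called genes had the same sign on both slides. The slides are parts of the same values that made each call, so this match is not a separate replication.

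**Figure D1:**
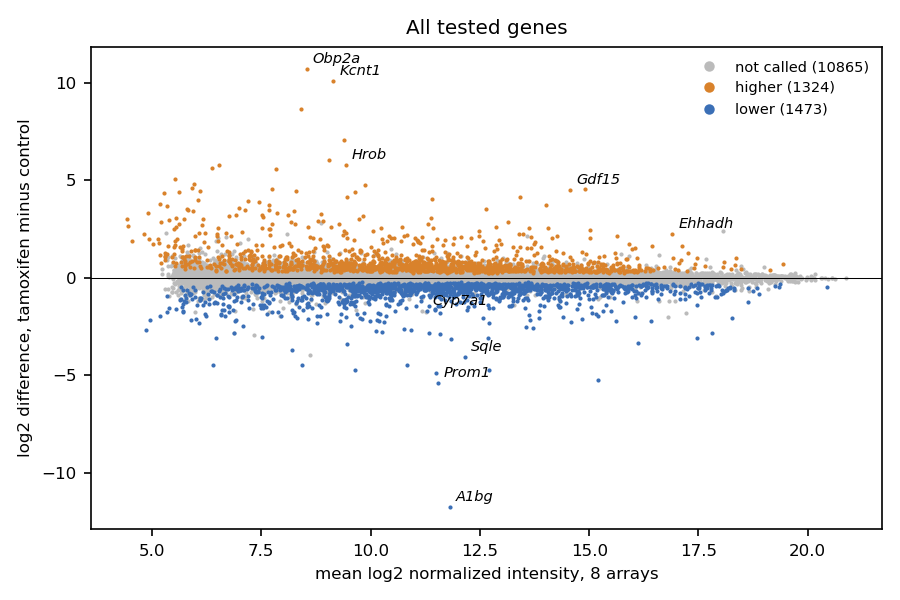
Log2 difference (tamoxifen minus control, vertical axis) against mean log2 normalized intensity over the 8 female arrays (horizontal axis) for 13662 genes, 1 point per gene. Orange points are the 1324 genes called higher and blue points the 1473 called lower; Obp2a and Kcnt1 lie at the top and A1bg at the bottom.

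The first principal component held 56.2% of the variance and placed controls between -40.5 and -32.2 and treated mice between 29.5 and 40.2. The second held 17.1% and ran within the groups, from control mouse 3 at -30.1 to control mouse 1 at 36.5. Between 51.8 and 55.8% of an array's probes passed the scanner's background test, and saturation was absent. Transcripts of 4 Y-linked genes were below background, and Xist was measured on all 8 arrays. Hepatocyte markers were present, with 10 of 10 tested, and 9 of 10 skeletal muscle and 5 of 10 pancreas markers were below background. In whole liver, fewer cells of a type and less RNA per cell cannot be told apart. Leaving out control mouse 1 gave 1593 genes higher and 1414 lower, and leaving out treated mouse 3 gave 777 and 877. Without control mouse 2 the counts were 925 and 1046.

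Among genes measured above background on all 8 arrays, the largest rise was in Hrob, a factor of homologous recombination that loads the MCM8-MCM9 helicase. Hrob intensity was 56.4, 86.7, 140.1 and 107.4 in control mice and 7315, 5409, 4746 and 3704 in treated mice. This is a 55.4-fold rise (log2 change 5.79 ± 0.30, adjusted p 1.7e-05), and the groups lay far apart. Icosl, the ligand of the T cell costimulator ICOS, read 258, 189, 139 and 152 in control mice and 4182, 4505, 5730.0 and 5206 in treated mice, a change of 4.76 ± 0.20 (adjusted p 6e-06). Arrdc2 encodes an arrestin-domain protein, and its intensity went from 6567, 5921, 7073 and 5706 to 166606, 125131, 213049 and 112115. Its change was 4.57 ± 0.20 (adjusted p 6.1e-06), and another probe of the gene gave 4.70.

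Gdf15 encodes a secreted stress hormone that lowers appetite and is induced by p53 and by the integrated stress response. Its intensity was 3568, 3489, 8144 and 6720.5 in control mice and 102043, 137656, 127947 and 99646 in treated mice. The rise of 4.50 ± 0.29 (adjusted p 4.6e-05) equals 22.6-fold, and the lowest treated mouse was above the highest control. Nedd9, a scaffold of integrin signalling, varied little within groups: it read 187, 156, 163 and 158 in control mice and 3387, 3220.2, 2757 and 2522 in treated mice, a change of 4.15 ± 0.12. The remaining genes among the 8 largest rises were Omp, the olfactory marker protein, at 4.47 ± 0.48, Osbpl3, an oxysterol-binding protein relative, at 4.42 ± 0.26, and Myom3, a sarcomere protein, at 4.14 ± 0.22. Omp varied most among treated mice, with 3980.4, 1087, 1684 and 644, against 76.8, 51.4, 73.2 and 67.6 in controls.

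**Figure D2:**
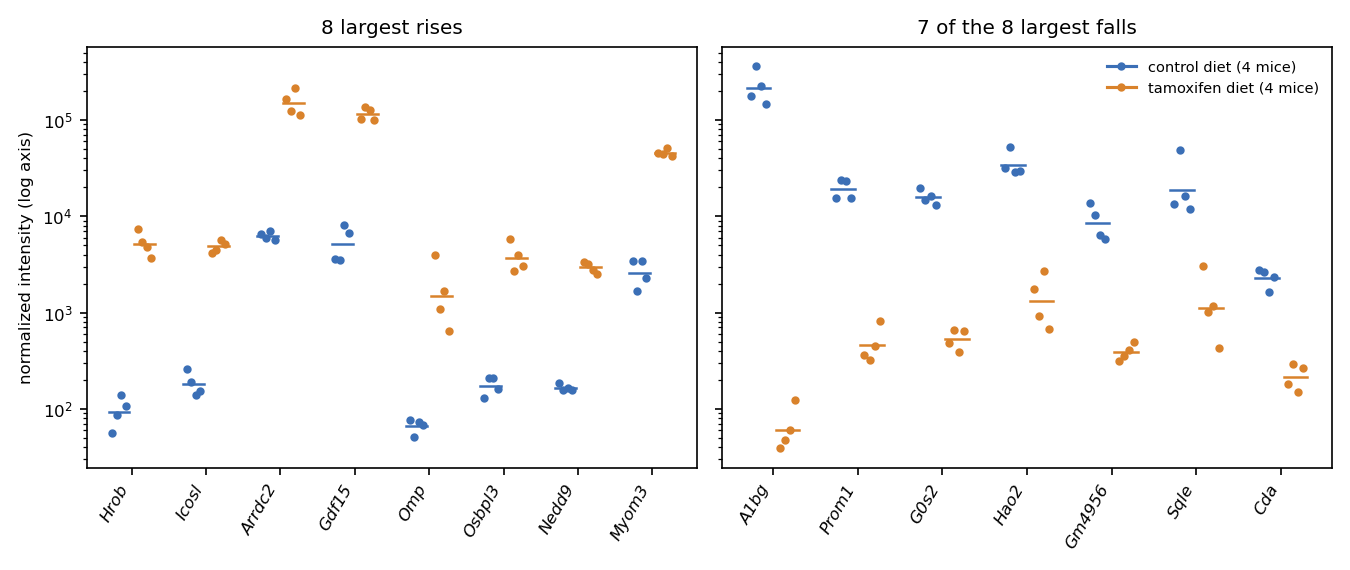
Normalized intensity (log axis) of the 8 genes with the largest rises and of 7 of the 8 with the largest falls among genes measured on all 8 arrays. Points are single mice, blue for the control diet and orange for tamoxifen, and lines are means of log2 values; by the rule that chose them, the groups of no gene overlap.

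The largest fall of all was in A1bg, which encodes a plasma glycoprotein of the immunoglobulin superfamily. A1bg read 176400, 363157, 223967 and 145027 in control mice and 38.7, 47.4, 60.6 and 123 in treated mice. The log2 change was -11.78 ± 0.39 (adjusted p 2.6e-06) and the probe stayed above background in all 4 treated mice. Prom1, the membrane glycoprotein CD133, read 15662, 23751, 23452 and 15458 in control mice and 366, 322, 449 and 819 in treated mice, a change of -5.39 ± 0.30. In the plot of the largest changes the treated mice form a group well apart from the controls for A1bg and Prom1.

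G0s2, the inhibitor of the triglyceride lipase ATGL, fell by 4.89 ± 0.20 (adjusted p 6e-06). It read 19887, 14871, 16304 and 12971 in control mice and 481, 666, 392 and 637 in treated mice. Hao2, a peroxisomal hydroxyacid oxidase, fell by 4.72 ± 0.42, and control mouse 2 stood high at 52797 against 28810 to 31742 in the other controls. Sqle, squalene epoxidase, fell by 4.09 ± 0.63. Cda, cytidine deaminase, fell by 3.41 ± 0.25. Gm4956 fell by 4.46 ± 0.28.

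Some genes were above background only with the drug, so that their change is given as a bound on the deposited values. Obp2a, an odorant-binding lipocalin, read 8.81, 8.35, 9.44 and 9.41 in control mice and 25059.8, 9977, 19579 and 11070.3 in treated mice. Its level with tamoxifen was at least 433-fold that of controls. Dim values were raised to the array's lowest signal that was well above background, and "at least" refers to that floor. Other processing gave smaller sizes: the log2 change of Obp2a was 10.73 on the values as read and as low as 5.80 among the alternatives. The adjusted p of 9.4e-07 is that of the limma test on the values as read, dim controls included, and not of the bound. Kcnt1, a sodium-activated potassium channel, read 14.8, 7.59, 32.2 and 23.6 in control mice and 25547, 13169, 26153 and 13662 in treated mice and was at least 521-fold higher. Syn2, a synapsin of synaptic vesicles, was at least 196-fold higher, Igfbpl1 at least 19.7-fold and Sohlh1, a germ cell transcription factor, at least 16.6-fold. In all, 45 called genes were above background only in treated mice and 6 only in controls. Such genes were tested only because the brighter group passed the filter, so these counts are a description and not a test of direction. The largest bound in the lower direction was 9530077C05Rik, at least 12.1-fold lower, and the other genes named by the same rule (Gngt1, Kbtbd13, Pygo1 and the chemokine receptor Ccr2) had bounds of 2.34 to 2.59. Those 4 were no longer called after normexp background correction.

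Sfrp5, Tuba8 and Htr1d were above background in all treated mice and in some controls. Sfrp5, a secreted Wnt antagonist, was above background on 3 control arrays and read 68.2, 89.9, 38.6 and 45.2 in control mice and 30659, 3097, 18313 and 2119 in treated mice, a change of 7.09 ± 0.83 (adjusted p 0.0011). Among treated mice Sfrp5 was high in mice 1 and 3 and lower in mice 2 and 4. Tuba8, an alpha tubulin, changed by 6.07 ± 0.31, and Htr1d, a serotonin receptor, by 5.61 ± 0.48. In the other direction Nuggc changed by -4.46 ± 0.94. Hsd3b1, a steroid dehydrogenase and isomerase, changed by -4.73 ± 1.16, with treated values of 714, 139, 362 and 16.5. Its adjusted p was 0.019 to 0.062 with 1 mouse left out at a time, called in all but the fits without control mouse 2 or 4 or treated mouse 2.

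Among the gene groups examined, cholesterol synthesis had the largest share of falls. The pathway makes sterols from acetyl-CoA under the control of SREBP-2, which is released when sterols are low. Of 23 tested genes of synthesis and uptake, 15 (65.2%) fell and 0 rose, against 10.8% and 9.69% of all tested genes, and the median change was -1.12. There were 0 rises and 19 falls at an unadjusted limma p under 0.05. The median was -1.22 on the first slide and -1.05 on the second. Per mouse, the median of the group relative to the control mean was -0.39, 0.84, 0.02 and -0.41 in controls and -1.22, -0.92, -1.42 and -1.39 in treated mice. Control mouse 2 stood above the other controls along the pathway, and with each mouse left out in turn the count of falls ran from 13 to 17 and the median from -1.32 to -0.80.

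Not every step shared the fall. Hmgcs1, which makes HMG-CoA, read 60122, 216240, 124352 and 80089 in control mice and 101473, 168129, 134264 and 101655 in treated mice, a change of 0.21 ± 0.37 that was not called (adjusted p 0.72). The groups overlapped. Between mevalonate and squalene 5 of 6 genes fell. Idi1, isopentenyl diphosphate isomerase, read 26546, 92316, 46450 and 30745 in control mice and 14682, 11204, 10068 and 8363 in treated mice, a change of -2.00 ± 0.37 (adjusted p 0.008). Mvd, the mevalonate decarboxylase, changed by -2.19 ± 0.43, Fdft1, squalene synthase, by -2.33 ± 0.28 and Mvk, mevalonate kinase, by -1.05 ± 0.24. Pmvk, the next kinase, was not called (-0.69 ± 0.28, adjusted p 0.11). Fdps, farnesyl diphosphate synthase, changed by -1.80 ± 0.47. Its adjusted p was 0.018 to 0.075 with 1 mouse left out at a time, called only in the fits without control mouse 1, 2 or 4.

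Of the tested genes of the pathway, squalene epoxidase fell most. Sqle read 13569, 49126, 16115 and 11836 in control mice and 3030.5, 1006, 1166 and 429 in treated mice, a change of -4.09 ± 0.63 (adjusted p 0.0035) with no overlap. Its partner at the next step, Lss, which closes the sterol ring, changed by -1.12 ± 0.34. For Lss the adjusted p was 0.04 to 0.12 with 1 mouse left out at a time, called only in the fits without control mouse 1, 2 or 4.

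From lanosterol to cholesterol 5 of 9 genes fell. Msmo1, the sterol C4-methyl oxidase, read 23189.7, 67582, 35745 and 20342 in control mice and 7297, 5398, 5374 and 4260.2 in treated mice, a change of -2.58 ± 0.36 (adjusted p 0.0024). Cyp51, the lanosterol demethylase, changed by -2.18 ± 0.42, Nsdhl by -2.09 ± 0.41 and Sc5d by -0.98 ± 0.22. Tm7sf2, a sterol C14 reductase, went from 106206, 174456, 156947 and 112459 to 31832, 37751, 30906 and 34522, with a change of -2.00 ± 0.17 (adjusted p 0.00024) and a tight spread in treated mice. Ebp and Dhcr7, the isomerase and reductase that together form a binding site for tamoxifen in microsomes, did not pass the test. Ebp changed by -0.27 ± 0.10 (adjusted p 0.091) and Dhcr7 by -1.10 ± 0.35 (adjusted p 0.056); with 1 mouse left out at a time the adjusted p of Dhcr7 was 0.031 to 0.12, and it was called without control mouse 1 or 2. Hsd17b7, a ketoreductase, was not called either (-0.51 ± 0.18, adjusted p 0.073), except without control mouse 1 (0.025 to 0.16 with 1 mouse left out at a time).

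**Figure D3:**
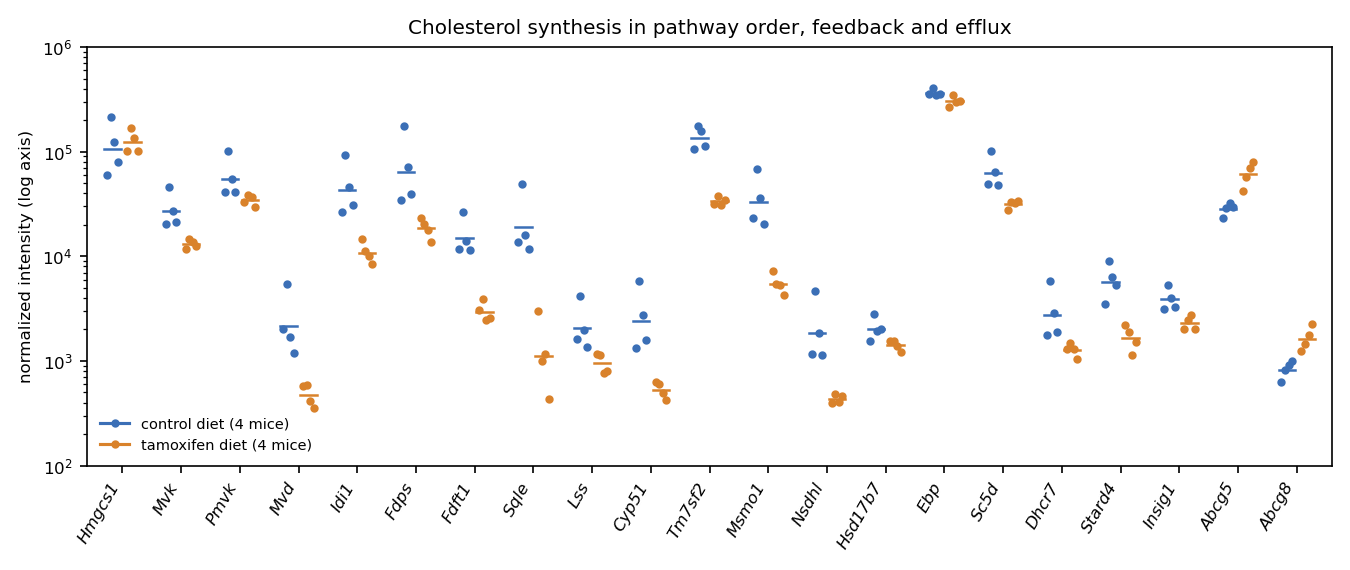
Normalized intensity (log axis) of cholesterol synthesis genes in the order of the pathway, then sterol transfer, feedback and efflux genes. Points are single mice (blue control, orange tamoxifen) and lines are means of log2 values; the groups separate from Mvk to Nsdhl, overlap at Hmgcs1 and Hsd17b7, and Abcg5 and Abcg8 run the other way.

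Feedback genes changed in both directions. Stard4, a sterol carrier, fell by 1.80 ± 0.30. Of the SREBP system, Srebf2, which encodes SREBP-2, fell by 0.93 ± 0.18 (adjusted p 0.0088), although another probe gave -0.22. Scap, the sterol-sensing escort of SREBP, fell by 0.68 ± 0.10, and Insig2, which retains the complex in the endoplasmic reticulum, rose by 0.76 ± 0.09. Srebf1 was not called (-0.41 ± 0.23), except without control mouse 3 (adjusted p 0.014 to 0.45 with 1 mouse left out at a time). Insig1, itself a target of SREBP, fell by 0.74 ± 0.19. The adjusted p of Insig1 was 0.019 to 0.065 with 1 mouse left out at a time, called in all but the fits without control mouse 3 or treated mouse 1 or 4.

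Of 14 tested genes of the oxysterol receptor LXR and sterol efflux, 5 rose and 1 fell, against 9.69% and 10.8% of all tested genes. Their median change was 0.08, and that of all tested genes was 0.01. Abcg5 and Abcg8 encode the subunits of the transporter that secretes cholesterol into bile. Abcg5 read 23220.1, 29196, 32305 and 29464 in control mice and 42525, 57402, 70429 and 78771 in treated mice, a change of 1.10 ± 0.20 (adjusted p 0.0066), and Abcg8 changed by 0.99 ± 0.21. Abcg1 rose by 0.96 ± 0.20, Mylip, a ubiquitin ligase induced by LXR, by 0.79 ± 0.16 and the HDL receptor Scarb1 by 0.79 ± 0.19. The adjusted p of Scarb1 was 0.025 to 0.062 with 1 mouse left out at a time, called in all but the fits without treated mouse 2, 3 or 4. Other probes of Mylip and Scarb1 were not called (1.05 ± 0.33 and 0.51 ± 0.18). Abca1, another LXR target, was not called at 0.18 ± 0.10 (adjusted p 0.22), nor was the brightest probe of Nr1h3, which encodes LXR alpha, at -0.23 ± 0.09. Another Nr1h3 probe was called lower, at -0.28 ± 0.08 (adjusted p 0.041). Soat2, which esterifies cholesterol, fell by 0.84 ± 0.24. Its adjusted p was 0.029 to 0.092 with 1 mouse left out at a time, called only in the fits without control mouse 1 or treated mouse 4.

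The sterol response element TCACNCCAC was searched on both strands in RefSeq promoters (250 bases before to 50 after the start, build GRCm38.p6). It was present in 1 of 16 promoters of the cholesterol group that the table holds (6.25%) and in 1.44% of the promoters of all 27025 genes. The promoter that holds it is that of Hmgcs1, a gene of the pathway that was not called. It is shown because it is the only match in the group, at chr13:119690204-119690323 on the plus strand, from 147 to 28 bases before the start, with the element in capitals.
Hmgcs1: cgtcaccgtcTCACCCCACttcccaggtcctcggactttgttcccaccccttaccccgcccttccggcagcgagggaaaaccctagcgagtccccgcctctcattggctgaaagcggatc

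Fatty acid and triglyceride synthesis genes gave more falls than rises. Of 28 tested genes 9 (32.1%) fell and 1 (3.57%) rose, against 10.8% and 9.69% of all tested genes. The median change was -0.37. It was -0.62 on the first slide and -0.21 on the second, and ran from -0.48 without control mouse 4 to -0.17 without control mouse 2. In the fits that left out 1 mouse, 1 to 3 rose and 9 to 12 fell, and a count moved by over 1.5 times without control mouse 1 or 3 or treated mouse 1. Acacb, the mitochondrial acetyl-CoA carboxylase that restrains fatty acid oxidation, read 55029.8, 76704, 56353 and 56517 in control mice and 10069.8, 21406, 11461 and 15838 in treated mice, a change of -2.11 ± 0.24 (adjusted p 0.00087). Pklr, liver pyruvate kinase, fell by 1.72 ± 0.22, Elovl1, an elongase of saturated fatty acids, by 1.72 ± 0.26, and Fads2, the delta-6 desaturase, by 1.58 ± 0.24. The gene that rose was Elovl2, an elongase of polyunsaturated fatty acids, at 0.53 ± 0.11; it was named after its value was seen.

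Genes of fat storage and oxidation changed in both directions. Ehhadh, the peroxisomal bifunctional enzyme and a PPAR alpha target, read 49785, 64347, 63420.5 and 48604 in control mice and 238499, 268633, 279775 and 284513 in treated mice, a change of 2.25 ± 0.12 (adjusted p 2.4e-05). Pdk4, the kinase that shuts pyruvate dehydrogenase, rose by 1.30 ± 0.24, and Acot3, a peroxisomal thioesterase, fell by 2.50 ± 0.18. Over 42 tested genes of oxidation and PPAR alpha targets 4 (9.52%) rose and 7 (16.7%) fell, against 9.69% and 10.8% of all tested genes. The median was 0.00, near that of all genes. Over the 8 fits without 1 mouse, 3 to 8 rose and 4 to 8 fell, and a count moved by over 1.5 times without control mouse 3 or 4 or treated mouse 3. The lipid droplet proteins Plin4 and Fitm1 rose by 2.03 ± 0.45 and 2.03 ± 0.44. Plin4 had an adjusted p of 0.00072 to 0.05 with 1 mouse left out at a time, called in all but the fits without treated mouse 3.

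Cyp7a1 and Cyp8b1, the regulated enzymes of bile acid synthesis, fell. Cyp7a1, the rate-limiting hydroxylase, read 3664, 3626, 3431 and 9025 in control mice and 1198, 1603, 1324 and 1389 in treated mice, a change of -1.72 ± 0.30 (adjusted p 0.0059); control mouse 4 was high and all treated mice were below all controls. Cyp8b1, which makes cholic acid, read 7575, 10474, 7249 and 8637 in control mice and 2998, 5431, 3632 and 4812 in treated mice, a change of -1.03 ± 0.20. Klb, the coreceptor of FGF15, fell by 0.61 ± 0.13. Nr0b2, the repressor SHP, was not called at 0.31 ± 0.23 (adjusted p 0.36), nor was Cyp27a1 at 0.22 ± 0.15.

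Among transporters, Abcc3, a basolateral exporter of conjugates, read 31966, 22776, 64543 and 48193 in control mice and 79288, 135828, 106412 and 121585 in treated mice, a change of 1.49 ± 0.32 (adjusted p 0.014). Atp8b1, a phospholipid flippase of the canalicular membrane, rose by 0.85 ± 0.15 and the uptake carrier Slco1b2 by 0.44 ± 0.08. The main canalicular and basolateral bile salt carriers were not called, Abcb11 at -0.12 ± 0.14 and Slc10a1 at -0.06 ± 0.07. The probes of Slc10a1 disagreed, since another one was called lower (-0.73 ± 0.16, adjusted p 0.016). Of 30 tested genes of bile acid synthesis and transport 3 (10%) rose and 4 (13.3%) fell, near the 9.69% and 10.8% of all tested genes.

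Most tested genes of tamoxifen oxidation fell and the 3 tested genes of its export rose. Of 10 tested genes of the oxidation role, which are flavin-containing monooxygenases and cytochromes P450, 7 fell and 0 rose, and all 3 drug exporters rose. Of all tested genes 10.8% fell and 9.69% rose. The monooxygenase Fmo1 read 21449, 33031, 25638 and 22011 in control mice and 13022, 16455, 13715 and 16624 in treated mice, a change of -0.76 ± 0.16 (adjusted p 0.012), Fmo2 changed by -0.87 ± 0.17 and Fmo4 by -1.19 ± 0.16. Cyp2d40, of the family whose human member makes 4-hydroxytamoxifen and endoxifen, read 60211, 53705, 50479 and 64413 in control mice and 15660.5, 22868, 18810.4 and 24128 in treated mice, a change of -1.50 ± 0.15.

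Sult1a1, a phenol sulfotransferase, read 249456, 248808, 332911 and 256813 in control mice and 113917, 145885, 129062 and 168635 in treated mice, a change of -0.97 ± 0.15 (adjusted p 0.0034). Sult3a1, an amine sulfotransferase, fell by 0.77 ± 0.18. Its adjusted p was 0.021 to 0.056 with 1 mouse left out at a time, called in all but the fits without control mouse 2 or treated mouse 3. The hydroxysteroid sulfotransferases Sult2a1 and Sult2a2, of the kind that activates alpha-hydroxytamoxifen towards DNA, were not called (0.11 ± 0.32 and 0.07 ± 0.25), with wide overlap. They are near-identical copies, so that their probes may share signal.

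The exporters were P-glycoprotein, encoded by Abcb1a and Abcb1b, and Abcg2, the breast cancer resistance protein. Abcb1b read 476, 667, 526 and 528 in control mice and 2586, 1074, 1391 and 903 in treated mice, a change of 1.33 ± 0.30 (adjusted p 0.017). Abcg2 rose by 0.64 ± 0.14, with treated values of 21265, 21158, 23861 and 23752. Abcb1a rose by 0.79 ± 0.22. For Abcb1a the adjusted p was 0.013 to 0.1 with 1 mouse left out at a time, called only in the fits without control mouse 3. Over the whole group of 34 tested genes of tamoxifen metabolism, 4 (11.8%) rose and 10 (29.4%) fell, against 9.69% and 10.8% of all tested genes. Without treated mouse 3 the counts were 2 and 6.

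Of 35 tested cytochromes P450 of families 1 to 3 and their receptors, 11 (31.4%) fell and 2 (5.71%) rose, against 10.8% and 9.69% of all tested genes. With 1 mouse left out at a time, 0 to 2 rose and 6 to 11 fell, and a count moved by over 1.5 times without control mouse 1, 2 or 4 or treated mouse 1, 2, 3 or 4. Cyp2f2, an airway and periportal enzyme, read 231366, 314671, 183124 and 201891 in control mice and 31048, 18297, 22992 and 19264 in treated mice, a change of -3.35 ± 0.21 (adjusted p 4.6e-05). Cyp2g1 fell by 3.16 ± 0.28, and Nr1i3, the receptor CAR that induces P450 genes, by 1.40 ± 0.14. The usual marker enzymes of receptor activation were not called: Cyp2b10 for CAR changed by 0.05 ± 0.23 (adjusted p 0.9), Cyp3a11 for PXR by 0.62 ± 0.24 (adjusted p 0.1) and Cyp1a2 for the aryl hydrocarbon receptor by -0.60 ± 0.31 (adjusted p 0.2). Cyp3a11 was lowest in treated mouse 1, at 276667, and was called without that mouse (adjusted p 0.013 to 0.22 with 1 mouse left out at a time).

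Genes of the oestrogen receptor system changed in both directions. Of 40 tested genes of receptors, coregulators, responsive genes and oestrogen metabolism 7 rose and 7 fell (17.5% each), against 9.69% and 10.8% of all tested genes. The median was -0.11, from -0.18 without control mouse 1 to -0.08 without treated mouse 3. In the fits that left out 1 mouse, 4 to 6 rose and 4 to 8 fell, and a count moved by over 1.5 times without control mouse 2 or treated mouse 2, 3 or 4. Esr1, oestrogen receptor alpha, read 1069, 1669, 1609 and 1649 in control mice and 1007, 989, 1049.8 and 801 in treated mice, a change of -0.62 ± 0.16 (adjusted p 0.029). Control mouse 1 stood below the other controls. The adjusted p of Esr1 was 0.0039 to 0.075 with 1 mouse left out at a time, called only in the fits without control mouse 1. Of its other probes, 1 was called lower (-0.95 ± 0.15, adjusted p 0.004) and 1 was not called (-0.57 ± 0.67, adjusted p 0.58). Gper1, the membrane oestrogen receptor, was not called (0.03 ± 0.18).

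Greb1, a cofactor of the receptor that oestrogen induces in breast cells, read 610.2, 433, 343 and 490.0 in control mice and 1493, 952, 1366 and 1364 in treated mice, a change of 1.47 ± 0.20 (adjusted p 0.0021). Another Greb1 probe also rose, by 7.18 ± 0.29, so that the probes differed in the size of the change. Tff3, a secreted trefoil peptide, was below background in all controls and read 324, 176, 239 and 375 in treated mice, at least 7.58-fold higher; it was not called after normexp correction. Prlr, the prolactin receptor, fell by 0.85 ± 0.16 and Gata4, a transcription factor, by 1.24 ± 0.18.

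Of 20 tested genes of the growth hormone and STAT5 pathway 3 (15%) rose and 4 (20%) fell, against 9.69% and 10.8% of all tested genes. The median was 0.11. It was 0.09 on the first slide and -0.09 on the second, and ran from -0.03 without control mouse 2 to 0.13 without control mouse 3. Over the 8 fits without 1 mouse, 2 to 6 rose and 3 to 4 fell, and a count moved by over 1.5 times without control mouse 3. Bcl6, a repressor of STAT5 targets that is male-biased in liver, read 4520.0, 4132, 6278 and 5247 in control mice and 29270.5, 30984, 11938 and 27568 in treated mice, a change of 2.23 ± 0.30 (adjusted p 0.0021). Treated mouse 3 was lowest of its group and still above every control. Stat5a read 5069, 6708, 6384 and 7215 in control mice and 23192, 17746, 22509 and 13432 in treated mice, a change of 1.58 ± 0.19 (adjusted p 0.0013). Cux2, a transcription factor found in female liver, read 1029, 704, 1199 and 1466 in control mice and 17.9, 80.8, 165 and 182 in treated mice, a change of -3.71 ± 0.68 (adjusted p 0.0073); in treated mouse 1 it was below background.

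Other members of the pathway moved less. Igfals, the acid-labile subunit of the IGF complex, fell by 1.31 ± 0.18 and Trim24 by 0.57 ± 0.14; with 1 mouse left out at a time the adjusted p of Trim24 was 0.026 to 0.059, and it was not called without control mouse 4. The receptor Ghr was not called (-0.07 ± 0.11), nor was Igf1 (-0.13 ± 0.12). Socs2, the feedback inhibitor that STAT5 induces, read 15435, 19537, 12029.8 and 16618 in control mice and 14316, 4927, 4531 and 3415 in treated mice. Treated mouse 1 lay within the control range and the other treated mice below it; the change of -1.45 ± 0.40 had an adjusted p of 0.0016 to 0.099 with 1 mouse left out at a time, called only in the fits without control mouse 3 or treated mouse 1. Other probes of Socs2 were not called (adjusted p 0.052 and 0.055).

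Many genes known to be higher in female than in male liver fell. Of 29 tested, 16 (55.2%) fell and 0 rose, against 10.8% and 9.69% of all tested genes. There were 0 rises and 19 falls at an unadjusted limma p under 0.05. The median change was -0.82, with -0.93 on the first slide and -0.73 on the second. The count of falls ran from 14 to 18 with 1 mouse left out at a time. Per mouse the group median was -0.21, 0.04, 0.20 and -0.06 in controls and -1.39, -0.66, -0.98 and -0.53 in treated mice, so that the groups did not overlap. The falls of A1bg, Prom1 and Hao2, given above, were among them. The group is a list from general knowledge and was drawn up with results of these mice known, so its count is not independent evidence of direction.

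Of 28 tested genes listed as male-biased 4 (14.3%) rose and 1 (3.57%) fell, against 9.69% and 10.8% of all tested genes. There were 4 rises and 6 falls at an unadjusted limma p under 0.05, and the median was 0.09. The median had no stable sign: it was -0.14 on the first slide and 0.10 on the second, and ran from -0.16 to 0.22 with 1 mouse left out, below 0 without control mouse 3 or 4 or treated mouse 1. With 1 mouse left out at a time, 4 to 5 rose and 0 to 4 fell, and a count moved by over 1.5 times without control mouse 1, 3 or 4 or treated mouse 1. The 4 were Bcl6, Nat8, Gstp1 and C8a. Nat8, an N-acetyltransferase, read 1266, 1322, 1035 and 972 in control mice and 7373, 3606, 4851 and 2240.1 in treated mice, a change of 1.86 ± 0.32 (adjusted p 0.006), and C8a, a complement component, rose by 1.04 ± 0.20. The listed gene that fell was Trim24. Whether each listed gene differs between the sexes in this strain was not tested. Nat8 was highest in treated mouse 1 and lowest in treated mouse 4, both above all controls.

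**Figure D4:**
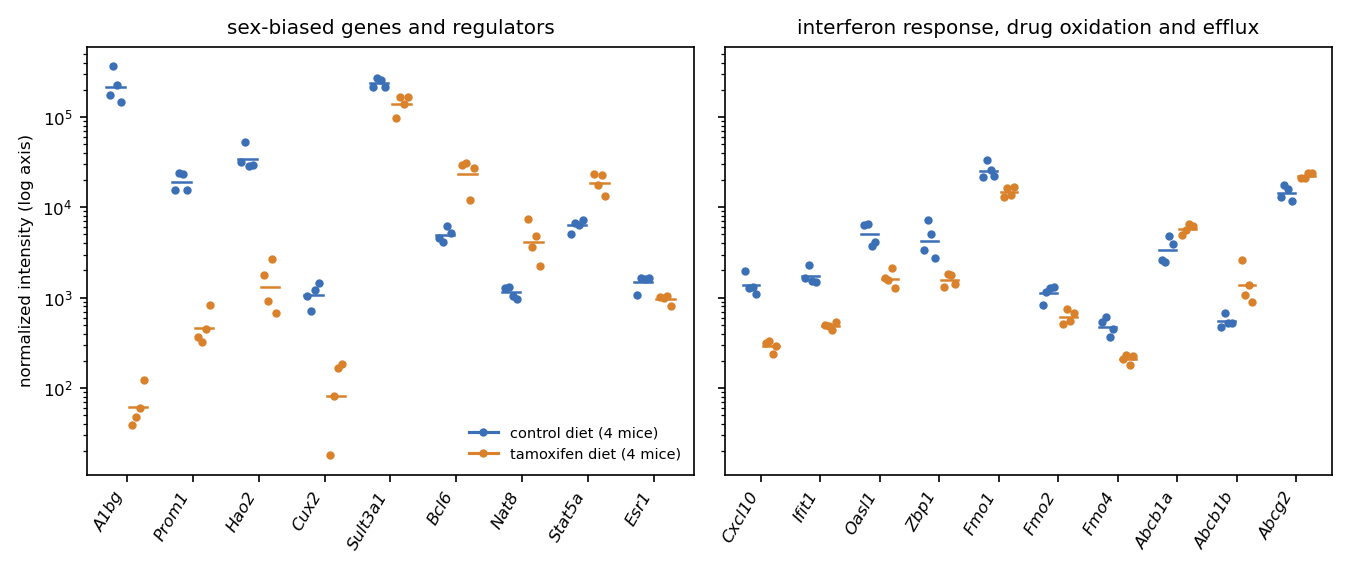
Normalized intensity (log axis) of sex-biased genes with regulators of sex bias (left) and of interferon, drug oxidation and efflux genes (right). Points are single mice (blue control, orange tamoxifen) and lines are means of log2 values; A1bg, Prom1, Hao2 and Cux2 fall, Bcl6, Nat8 and Stat5a rise, and the treated values of Cxcl10, Ifit1, Oasl1 and Zbp1 lie below all control values.

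Many interferon-stimulated genes fell in treated livers. Interferons signal through STAT factors and IRF9 to genes that carry interferon elements in their promoters. Of 48 tested genes 23 (47.9%) fell and 0 rose, against 10.8% and 9.69% of all tested genes. There were 3 rises and 28 falls at an unadjusted limma p under 0.05. The median was -0.43, with -0.54 on the first slide and -0.32 on the second. Per mouse the median was -0.01, 0.22, -0.08 and -0.15 in controls and -0.48, -0.40, -0.38 and -0.50 in treated mice. Between 18 and 21 genes fell when 1 mouse was left out. Effectors gave 15 of the 23 falls (of 29 tested), sensors and factors 4 of 9, and antigen presentation 4 of 10.

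Cxcl10, a chemokine that draws T cells, read 1964, 1272, 1299 and 1085 in control mice and 318, 328, 235 and 289 in treated mice, a change of -2.24 ± 0.19 (adjusted p 0.00024). Ifit1, which binds foreign RNA caps, read 1651, 2321, 1546 and 1479 in control mice and 496, 481, 439 and 541 in treated mice, a change of -1.82 ± 0.15 (adjusted p 0.00021). Treated mice lay in a narrow band in both genes. Oasl1 fell by 1.63 ± 0.22 and Zbp1, a sensor of nucleic acids, by 1.44 ± 0.29; another Zbp1 probe gave -2.68.

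The interferon element GAAANNGAA was present on either strand in 19 of 39 promoters of the group (48.7%), against 9.76% of all promoters of the table. It was found in 9 of the 19 promoters of genes that fell (47.4%) and in 9 of the 18 of genes that were not called (50%). The windows of 4 genes that fell are shown because they carry the element, which is in capitals; overlapping copies run together. Ifit1 lies at chr19:34640769-34640888 (plus strand), Isg15 at chr4:156200819-156200938 (minus), Cxcl10 at chr5:92348993-92349112 (minus) and Irgm1 at chr11:48871421-48871540 (minus). All end just before the start except that of Cxcl10, which runs from 223 to 104 bases before it. Isg15 and Irgm1 were chosen after their values were seen.
Ifit1: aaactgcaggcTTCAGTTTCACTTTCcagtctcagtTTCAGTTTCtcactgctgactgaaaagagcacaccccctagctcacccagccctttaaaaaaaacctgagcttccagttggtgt
Isg15: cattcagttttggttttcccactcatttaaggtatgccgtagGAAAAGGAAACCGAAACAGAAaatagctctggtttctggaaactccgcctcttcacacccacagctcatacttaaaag
Cxcl10: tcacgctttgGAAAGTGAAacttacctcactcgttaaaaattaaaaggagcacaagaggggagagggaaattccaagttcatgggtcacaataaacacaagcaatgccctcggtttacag
Irgm1: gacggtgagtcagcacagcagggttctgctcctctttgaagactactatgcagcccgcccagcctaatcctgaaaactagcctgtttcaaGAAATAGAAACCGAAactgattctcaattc

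Markers of other liver cells were examined beside these groups. Of 14 tested Kupffer cell and macrophage markers 1 (7.14%) rose and 1 (7.14%) fell, against 9.69% and 10.8% of all tested genes. The median change was 0.64. That median was 0.17 on the first slide and 1.15 on the second, and ran from 0.32 without control mouse 3 to 1.05 without control mouse 1. Their summed intensity ran from 47097 to 174917 in controls and from 98518 to 178261 in treated mice. Control mouse 1 was the highest control, and without it 10 of the 14 rose. Cd163 and Folr2 were below background. Marco, a scavenger receptor of macrophages, read 1093, 877, 970.4 and 556 in control mice and 5642, 3966, 3630.3 and 3019 in treated mice, a change of 2.22 ± 0.25 (adjusted p 0.00086), with no overlap.

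Of 20 tested endothelial markers 6 (30%) rose and 0 fell, against 9.69% and 10.8% of all tested genes. There were 10 rises and 0 falls at an unadjusted limma p under 0.05, and the median was 0.35. Of these markers 14 rose without control mouse 1, and 3 to 5 rose when any other single mouse was left out. Gpr182 rose by 0.72 ± 0.15, Kdr, a VEGF receptor, by 0.62 ± 0.12 and Flt1 by 0.54 ± 0.10; another Kdr probe gave -0.11. T and NK cell markers gave 1 rise (11.1%) and 0 falls among 9 tested, beside the same shares of all tested genes. The gene that rose was Gzma, a granzyme of cytotoxic cells. It read 794, 435, 270.3 and 277 in control mice and 1392, 1347, 1709.7 and 1750.0 in treated mice. That change of 1.94 ± 0.32 had an adjusted p of 0.005, and 5 of the 9 markers rose without control mouse 1. The median change of the 9 was 0.25, with -0.11 on the first slide and 0.75 on the second. Their summed intensity ran from 33193.5 to 53145 in controls and from 25824 to 38806 in treated mice. Hepatocyte markers summed to 6860710 to 7791840 in controls and 6079910 to 8862770 in treated mice. Of these 10 markers 1 was called, against 20.5% of all tested genes in either direction. The part of these cells in the changes above was not tested.

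**Figure D5:**
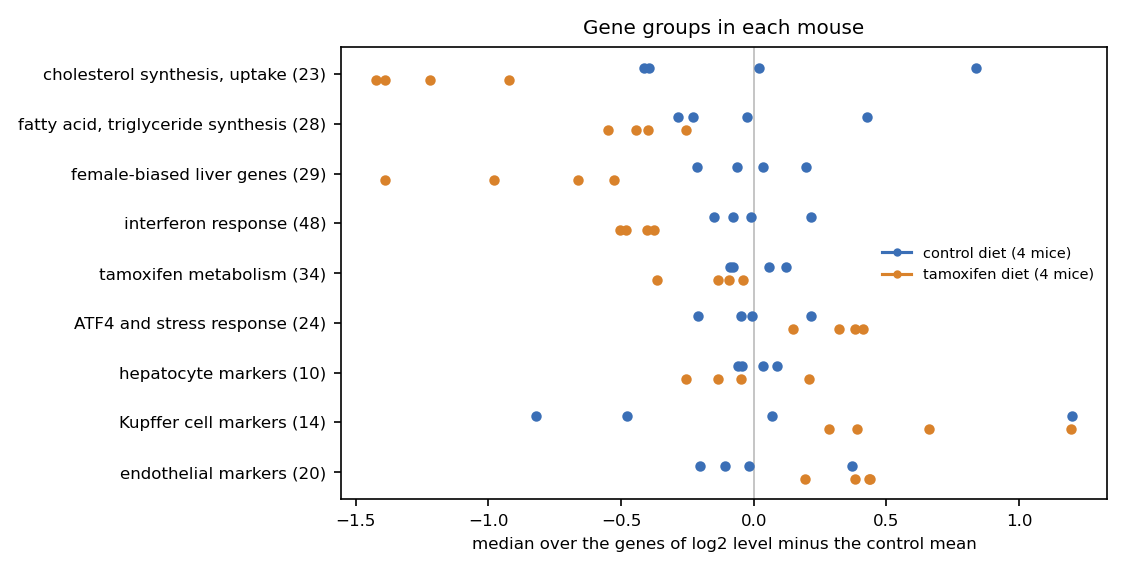
Median over the tested genes of each group (number in brackets) of the log2 level minus the control mean, 1 point per mouse, blue for control and orange for tamoxifen. Cholesterol synthesis, female-biased and interferon genes separate the groups, whereas Kupffer cell markers reach the same height in control mouse 1 and treated mouse 1.

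Among targets of p53 and genes of DNA damage sensing the share called was near that of all genes. Of 25 tested p53 targets alone 4 rose and 2 fell. With the damage sensors the whole group had 5 rises and 2 falls among 32 tested, against 9.69% and 10.8% of all tested genes. Its median of 0.06 ran from 0.03 to 0.12 with 1 mouse left out, lowest without control mouse 2 and highest without control mouse 4. In the fits that left out 1 mouse, 3 to 6 rose and 2 to 3 fell, and a count moved by over 1.5 times without treated mouse 3. Cdkn1a, the cell cycle inhibitor p21, read 981, 1256, 2995 and 569 in control mice and 3906, 4139, 5073 and 3835 in treated mice, a change of 1.81 ± 0.43 with an adjusted p of 0.0016 to 0.061 with 1 mouse left out at a time, called in all but the fits without treated mouse 3. Control mouse 3 was high for Cdkn1a. Bbc3, the apoptosis inducer PUMA, fell by 1.57 ± 0.15 (adjusted p 0.00049) and Gadd45a by 1.42 ± 0.25 (adjusted p 0.0064). Of 48 tested DNA repair genes 1 rose (2.08%) and 2 fell (4.17%), shares below the 9.69% and 10.8% of all tested genes. The gene that rose was Hrob. Mgmt, which removes alkyl groups from guanine, and Ercc6, of transcription-coupled repair, fell by 0.60 ± 0.17 and 0.55 ± 0.10. The count of falls was 1 without control mouse 2 or 4 and without any 1 treated mouse. The adjusted p of Mgmt was 0.019 to 0.099 with 1 mouse left out at a time, called only in the fits without control mouse 1.

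Of 32 cell cycle genes 3 (9.38%) rose and 2 (6.25%) fell, against 9.69% and 10.8% of all tested genes. Over the 8 fits without 1 mouse, 0 to 4 rose and 1 to 2 fell, and a count moved by over 1.5 times without control mouse 2, 3 or 4 or treated mouse 1, 2, 3 or 4. Mki67, the proliferation marker, read 176, 299.6, 888 and 168 in control mice and 274, 221, 202 and 335 in treated mice and was not called (-0.24 ± 0.49, adjusted p 0.77); control mouse 3 was the highest of all.

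Of the DNA methyltransferases, Dnmt3b, which writes new methylation, fell and the others did not pass the test. Dnmt3b read 5771, 4539, 3192 and 5290.2 in control mice and 2442, 2081, 2310.3 and 1752 in treated mice, a change of -1.11 ± 0.19 (adjusted p 0.0059). Dnmt1, the maintenance enzyme, changed by 0.30 ± 0.10 (adjusted p 0.068) and was called without treated mouse 4 (0.021 to 0.16 with 1 mouse left out at a time), and Dnmt3a changed by 0.13 ± 0.10 (adjusted p 0.4). In one-carbon metabolism 2 of 22 genes rose and 5 fell, against 9.69% and 10.8% of all tested genes. Pemt, which uses S-adenosylmethionine to make phosphatidylcholine, read 98676, 117558, 119534 and 103234 in control mice and 19961, 27295, 25805 and 20812 in treated mice, a change of -2.23 ± 0.13 (adjusted p 2.6e-05).

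Targets of ATF4, the transcription factor of the integrated stress response, gave 4 rises (16.7%) and 0 falls among 24 tested. Of all tested genes 9.69% rose and 10.8% fell. At an unadjusted limma p under 0.05 the group had 9 rises and 2 falls. Its median was 0.35 (0.18 on each slide alone). With 1 mouse left out at a time, 2 to 5 rose and 0 to 1 fell, and a count moved by over 1.5 times without control mouse 2 or 4 or treated mouse 2 or 3. Besides Gdf15 the genes called higher were Cebpb, a transcription factor, which rose by 1.61 ± 0.23 (adjusted p 0.0024), Psat1 of serine synthesis (1.17 ± 0.30) and Asns, asparagine synthetase (0.90 ± 0.25). The adjusted p of Psat1 was 0.013 to 0.073 with 1 mouse left out at a time, called in all but the fits without control mouse 4 or treated mouse 1, 2 or 4. That of Asns was 0.025 to 0.087 with 1 mouse left out at a time, called only in the fits without treated mouse 1 or 4. The amino acid response element TGATGNAA was found in 9 of 26 promoters of the group (34.6%) and in 4.51% of all promoters; of the genes that rose, Asns carries it. Of 34 tested unfolded protein and heat shock genes 3 rose (8.82%) and 1 fell (2.94%), against 9.69% and 10.8% of all tested genes. Among them Hspa1a, the inducible HSP70, rose by 2.12 ± 0.41 and Eif2ak3, the kinase PERK, by 0.82 ± 0.17.

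Genes of both zones of the liver lobule were among the falls. Of 20 pericentral genes 6 (30%) fell and 1 rose. Of 20 periportal genes 4 (20%) fell and 0 rose (2 rises and 9 falls at an unadjusted limma p under 0.05). Of all tested genes 10.8% fell and 9.69% rose. For pericentral genes the leave-one-out fits gave 3 to 6 falls, with 3 or 4 without control mouse 2 or treated mouse 1 or 3. Glul, glutamine synthetase of the last layer of cells around the central vein, read 19612, 23754, 30104 and 25599.7 in control mice and 6196, 7806, 5305 and 6796 in treated mice, a change of -1.92 ± 0.16 (adjusted p 0.00022). Rhbg, an ammonium transporter of the same cells, fell by 1.22 ± 0.19, and Slc13a3, a dicarboxylate carrier, rose by 1.72 ± 0.16. Periportal Ctsc, cathepsin C, read 29901, 35463, 34737 and 36041 in control mice and 12589.7, 12386, 12852 and 10257 in treated mice, a change of -1.50 ± 0.10, and Aldh1b1 fell by 1.39 ± 0.24.

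Wnt signalling, which sets the pericentral programme, gave 3 rises (13.6%) and 6 falls (27.3%) among 22 tested, against 9.69% and 10.8% of all tested genes. Sfrp5 rose as above, and Sfrp2, a related antagonist, was at least 4.12-fold higher; it was not called after normexp correction. The receptor Fzd8 fell by 1.26 ± 0.15. Lgr5, the R-spondin receptor, fell by 1.02 ± 0.30, with an adjusted p of 0.033 to 0.1 with 1 mouse left out at a time, called only in the fits without control mouse 1 or treated mouse 4.

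Afp, alpha-fetoprotein, read 899, 1046, 1674 and 950.2 in control mice and 5106, 4683, 4611 and 4854 in treated mice, a change of 2.12 ± 0.19 (adjusted p 0.00026). Serpina7, thyroxine-binding globulin, read 162, 147, 393 and 355 in control mice and 4286, 1118, 1152 and 1239 in treated mice, a change of 2.75 ± 0.51 (adjusted p 0.0076), with treated mouse 1 well above the others. Of 31 genes of the acute phase and inflammation 2 (6.45%) rose and 6 (19.4%) fell, against 9.69% and 10.8% of all tested genes. The 19 acute phase proteins among them gave 0 rises and 5 falls, and the 12 cytokines and chemokines 2 rises and 1 fall. In the fits that left out 1 mouse, 1 to 5 rose and 3 to 6 fell, and a count moved by over 1.5 times without control mouse 2, 3 or 4 or treated mouse 2, 3 or 4. Of 32 plasma lipoproteins and carriers 3 (9.38%) rose and 5 (15.6%) fell. Over the 8 fits without 1 mouse, 3 rose and 2 to 6 fell, and a count moved by over 1.5 times without control mouse 2, 3 or 4 or treated mouse 1, 3 or 4. Apcs, serum amyloid P, fell by 1.58 ± 0.22. Hamp, hepcidin, the hormone that limits iron uptake, fell by 0.78 ± 0.17, while Id1, a target of the same BMP signal, rose by 1.38 ± 0.21. Igfbp1, an insulin- and fasting-responsive binding protein, read 26452, 81821, 312241 and 302902 in control mice and 436361, 602240, 847558 and 705266 in treated mice. All treated values were above all controls, but the controls spanned a wide range and the change of 2.40 ± 0.74 missed the threshold (adjusted p 0.051, 0.032 to 0.12 with 1 mouse left out at a time); it was called without control mouse 1, 3 or 4.

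Csad, which makes taurine for bile acid conjugation, rose by 2.38 ± 0.33 (adjusted p 0.0024), and Bcat2, a branched-chain transaminase, fell by 0.88 ± 0.12. Pfkfb3, an activator of glycolysis, rose by 2.04 ± 0.42. The clock gene Per1 read 7008, 7323, 11109.6 and 10223 in control mice and 14626, 25072, 42013 and 30932 in treated mice, a change of 1.59 ± 0.31, and the clock output Usp2 rose by 2.17 ± 0.40.

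The 31 genes named above as the largest changes were also compared with the change in males of the same strain and diet, in a fit of all 16 arrays. Genes were picked by their size in females, so the share that differs is not that of an unpicked set. The difference between the responses passed the threshold for 15 of the 31, against 15.3% of all tested genes. Prom1 changed by 0.93 in males (female minus male -6.32 ± 0.48), G0s2 by -1.95 (-2.94 ± 0.51) and Myom3 by 0.70 (3.45 ± 0.35). Icosl rose less in females (-1.38 ± 0.26). A1bg (-17.54 ± 0.72), Hao2 (-8.41 ± 0.92), Cda (-5.96 ± 0.48) and Cux2 (-7.59 ± 0.78) fell in females and changed upwards in males. Their male changes were 5.76, 3.69, 2.55 and 3.88. These genes were below background in all control males and above it in all 4 treated males. The size of the male change therefore rests on dim control signals. The difference was not past the threshold for Hrob (0.24 ± 0.45), Gdf15 (0.49 ± 0.61), Kcnt1 (-0.06 ± 0.61) or Sqle (-1.65 ± 1.00).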

How the data were processed

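Liver RNA of 16 mice was hybridised to Agilent 1-colour arrays, and the 8 female arrays are described here. Per the submitters' processing notes, images were read with Agilent Feature Extraction 10.7. The authors deposited a table of normalized intensity values in which each array's 75th percentile lies near 1000, per a comparison with the scanner files. Per the file headers, the scanner intensity values behind it were background-corrected by that software. The array was designed on the reference genome, so that alleles of this wild-derived strain may bind a probe less well.

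Probes were named by matching their accession to RefSeq (GRCm38.p6): 26762 of 55681 had 1 symbol and 28919 had none. A probe was kept if either group had it well above background on each of its 4 arrays (27934 probes, 17618 named), and the brightest kept probe stood for a gene, which gave 13662 genes. For 654 called genes other probes were kept; for 572 of these all had the same sign, and 1 had a probe called in the opposite direction. Log2 of the deposited values was tested with limma 3.58.1 in R 4.3.3, 2 group means, two-sided, with Benjamini-Hochberg adjustment over all tested genes and a threshold of 0.05. Errors are limma standard errors with n = 4 mice per group. Outlier spots left 9 missing values, none in a named gene. The labels give 1 mouse per array. The number of arrays limits the precision. Probes dim in a whole group have a bound, set by the lowest signal well above background, in place of a fold.

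On simulated data of this size, the test recovered 86 of 100 genes changed 2-fold and 94 of 100 changed 4-fold, with 13 unchanged genes called. No other genes were changed there, and normal noise was drawn independently for each gene and array. In the data 20.5% of genes were called and mice can share deviations, so these rates may not carry over.

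The gene lists and the genes of interest were chosen with earlier results of these data known. Named genes were called genes without overlap between groups: the 8 largest each way measured on all arrays, the 5 largest bounds each way, the 3 largest each way measured on part of a group, and up to 4 of each list. Members of the sterol, bile acid, oestrogen, growth hormone and tamoxifen lists and a few markers were named for their role. A few genes that the rule takes are not reported here; they stay in the fits and in the counts of the lists. Alternatives were the scanner values, normexp correction (on the median signal), quantile and median scaling, other filters and probe rules, all 16 arrays, the slide and the replicate number as blocks, each slide alone, a stricter threshold and leaving out each mouse. All per-sample columns of the table were used (0 unused).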

Additional observations from a re-analysis of the deposited data

Results flagged for a closer look

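In 22 of 310 groups of 4 mice examined for the genes named above, 1 mouse stood apart from the other 3 by Dixon's criterion, which chance meets in about 1 in 20 groups. All values here are normalized intensities.

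Control mouse 1 stood apart 6 times. It was low for Scap (108557, others 112954 to 113055), Cyp2g1 (7335, others 12031 to 12999), Esr1 (1069, others 1609 to 1669) and Gadd45a (1312, others 2342 to 2623). It was high for Ccr2 (126, others 70.6 to 75.6) and for Sfrp2 (22.4, others 8.03 to 9.55), a probe below background in controls.

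Control mouse 2 was high for Hao2 (52797, others 28810 to 31742), Ebp (402972, others 351600 to 354817), Acacb (76704, others 55030 to 56517) and Igfbpl1 (30.1, others 8.39 to 9.69), which was below background in controls. Control mouse 3 was high for Sult1a1 (332911, others 248808 to 256813) and low for Slc10a1 (829577, others 871754 to 877178) and Htr1d (10.69, others 46.5 to 49.6). Control mouse 4 was high for Cyp7a1 (9025, others 3431 to 3664).

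Treated mouse 1 was high for Elovl1 (32888, others 19040 to 20486) and Serpina7 (4286, others 1118 to 1239), and low for Sc5d (27585, others 32620 to 33475) and Fzd8 (377, others 436 to 445). Treated mouse 3 was low for Bcl6 (11938, others 27568 to 30984). Treated mouse 4 was low for Gadd45a (570.1, others 888 to 904), Dnmt1 (605, others 757 to 791) and Ctsc (10257, others 12386 to 12852).

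For 15 of the 31 genes with the largest female changes, the female and the male log2 responses differed in limma's test of the difference over all 16 arrays. The response was larger towards the positive side in females for Myom3 (female minus male 3.45), Htr1d (2.19), Nuggc (3.74, where both sexes fell) and Obp2a (1.73). It was lower in females for Icosl (-1.38), G0s2 (-2.94) and Prom1 (-6.32). A further 8 genes were below background in all control males, so that the size of their male change rests on that dim side: A1bg (-17.54), Hao2 (-8.41), Cux2 (-7.59), Hsd3b1 (-6.00), Cda (-5.96), Kbtbd13 (-3.80), Gngt1 (-2.79) and Pygo1 (-2.11). All 8 fell in females and changed upwards in males. A1bg, Hao2, Cux2 and Cda were above background in all 4 treated males, and the others in 0 to 2. Obp2a was likewise below background in control mice of both sexes.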

How the results depend on the processing

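The counts of 1324 genes higher and 1473 lower were within 1.5 times of these under the scanner values, quantile normalization, the filter changes, the mean of a gene's probes, all 16 arrays, a trended robust variance and the slide as a block. They moved to 765 and 775 with normexp correction, 846 and 817 with array median scaling, 491 and 550 at an adjusted p of 0.01, 152 and 130 on slide 1 alone and 402 and 277 on slide 2 alone, which have 2 mice per group. Leaving out 1 mouse gave 777 to 1593 higher and 877 to 1414 lower. The share of calls that were higher, 47.3%, was 59.2% on slide 2 alone. The replicate block gave 1261 and 1265; deviations of equally numbered mice correlated at 0.279, 0.149, 0.065 and 0.095 and 2 of 4 numbers matched best with themselves, so the numbers were not taken as pairs. The count of genes whose response differed between the sexes was 2093, and 2178 with the slide as a block.

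No call of the 155 named genes was reversed under the alternatives run, although 1 other gene was called in the opposite direction with the mean of its probes. Normexp ended 14 calls (Gngt1, Kbtbd13, Pygo1, Ccr2, Klb, Tff3, Trim24, Insig1, Mgmt, Ercc6, Psat1, Asns, Hamp and Sfrp2), array median scaling 7 (Lss, Insig1, Soat2, Slco1b2, Esr1, Trim24 and Mgmt), testing without the filter 13 (Hsd3b1, Fdps, Lss, Insig1, Soat2, Scarb1, Abcb1a, Esr1, Socs2, Mgmt, Psat1, Asns and Lgr5) and the fit of all 16 arrays 6 (Ccr2, Abcg8, Sult3a1, Abcb1a, Socs2 and Hamp). Calls of Esr1 and Psat1 were also lost with the replicate block, those of Esr1 and Kdr with the mean of probes and that of Lgr5 with quantile normalization. The threshold of 0.01 ended 35 calls, slide 1 alone 78 and slide 2 alone 59. Keeping outlier spots, added after seeing the data, ended none. The causes were not tested. Searching only bases before the start left the sterol element at 6.25% of the cholesterol promoters and gave 43.6% for the interferon and 30.8% for the amino acid element. Signals near background limit the size of changes in dim probes to bounds, which hold for the deposited values only. Among the alternatives the log2 change of Igfbpl1 was as low as 1.76 and that of Sfrp2 as low as 0.40.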
